A study of Mus musculus with 6 samples.

Results

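The 9 genes described here are transcription factors that direct muscle gene expression: the MyoD family members Myod1, Myf5, Myf6 and Myog, the paired box genes Pax3 and Pax7, and the MEF2 genes Mef2a, Mef2c and Mef2d. They were chosen by gene symbol and matched by Ensembl identifier, and all 9 were found among the 22246 genes analysed. Levels are given as FPKM (fragments divided by gene length in kilobases and scaled between libraries). The scaling equals that of the authors' normalized reads, so FPKM values here already carry a normalization between libraries. The 6 RNA sequencing libraries are of the mouse line HL-1, a heart muscle line established from an atrial tumour lineage. In 3 libraries the cells carried a control short hairpin RNA (shRNA), and in 3 an shRNA against Smyd4, a gene of the SET and MYND domain methyltransferase family. All 6 carry the same strain label, C57BL/6, and total RNA was used. The labels leave out how the hairpins were delivered, when cells were harvested and whether they were a pool or 1 clone. They also do not say whether each library came from its own culture, so p-values measure the spread between these libraries, which may be technical.

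In embryonic skeletal muscle, Pax3 and Pax7 mark the progenitors, Myod1 and Myf5 commit cells to the myoblast fate, and Myog and Myf6 act in differentiation. MyoD family proteins bind E-boxes, short motifs near muscle genes, as pairs with E proteins, and Id proteins keep those partners off DNA. MEF2 proteins bind an A/T-rich motif and work with the MyoD family in skeletal muscle. MEF2 proteins also act in the heart, where the MyoD family is not normally active.

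Smyd4 mRNA stood at 12.5, 12.8 and 13.5 FPKM in the controls and at 12.6, 12.3 and 11.9 FPKM in the libraries labelled Smyd4 shRNA. The groups overlapped, and the limma log2 change was -0.07 (95% interval -0.16 to 0.02, adjusted p = 0.173). Directions below are therefore relative to the label and not to a measured fall of Smyd4 mRNA. The reads recovered for all genes came to between 20755856 and 26387606 a library, and the members rested on between 0 and 3348 reads each. Among the 11325 genes whose mean reached 1 FPKM, 48.3% passed limma's test at a Benjamini-Hochberg adjusted p under 0.05, 23.3% lower and 25.1% higher in the labelled libraries.

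The labelled cell type was set against its markers. Of 15 cardiomyocyte markers analysed, 11 had a mean under 1 FPKM. Myh6, the main myosin heavy chain of adult mouse heart, was listed at 0 in 4 libraries and reached at most 0.0381 FPKM. The atrial myosin light chain Myl7 and the T-box factor Tbx5 were also listed at 0 in 4 libraries. Tnnt2, cardiac troponin T, rose from 7.11 ± 0.264 to 11.7 ± 0.398 FPKM (SD, n = 3), and the cardiac homeobox gene Nkx2-5 rose from 3.58 ± 0.659 to 7.68 ± 0.607 FPKM. Nppb, a natriuretic peptide, fell from 2.15 ± 0.423 to 0.484 ± 0.282 FPKM. Gata4, a cardiac zinc finger factor, stood at 8.09 and 8.88 FPKM (limma, adjusted p = 0.0314; DESeq2, adjusted p = 0.138). The summed cardiomyocyte markers lay between 20.51 and 22.2 FPKM in the controls and between 28.4 and 30.3 FPKM in the labelled libraries. The 13 satellite cell and myoblast markers analysed summed to between 311.8 and 320.2 FPKM and between 199.8 and 203.6 FPKM. Of 11 skeletal muscle markers analysed, 9 had a mean under 1 FPKM. They summed to between 7.647 and 7.894 FPKM in the controls and between 2.135 and 3.282 FPKM in the labelled libraries. Most defining genes of differentiated heart muscle, and of differentiated skeletal muscle, thus had a mean under 1 FPKM. Of the 13 satellite cell and myoblast markers, 1 did. Other lists were also expressed: 2 of 5 smooth muscle, 3 of 8 fibroblast and 1 of 4 neuron and neural crest markers were under 1 FPKM. For macrophage and endothelial markers it was 3 of 5 and 5 of 5.

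**Figure D1:**
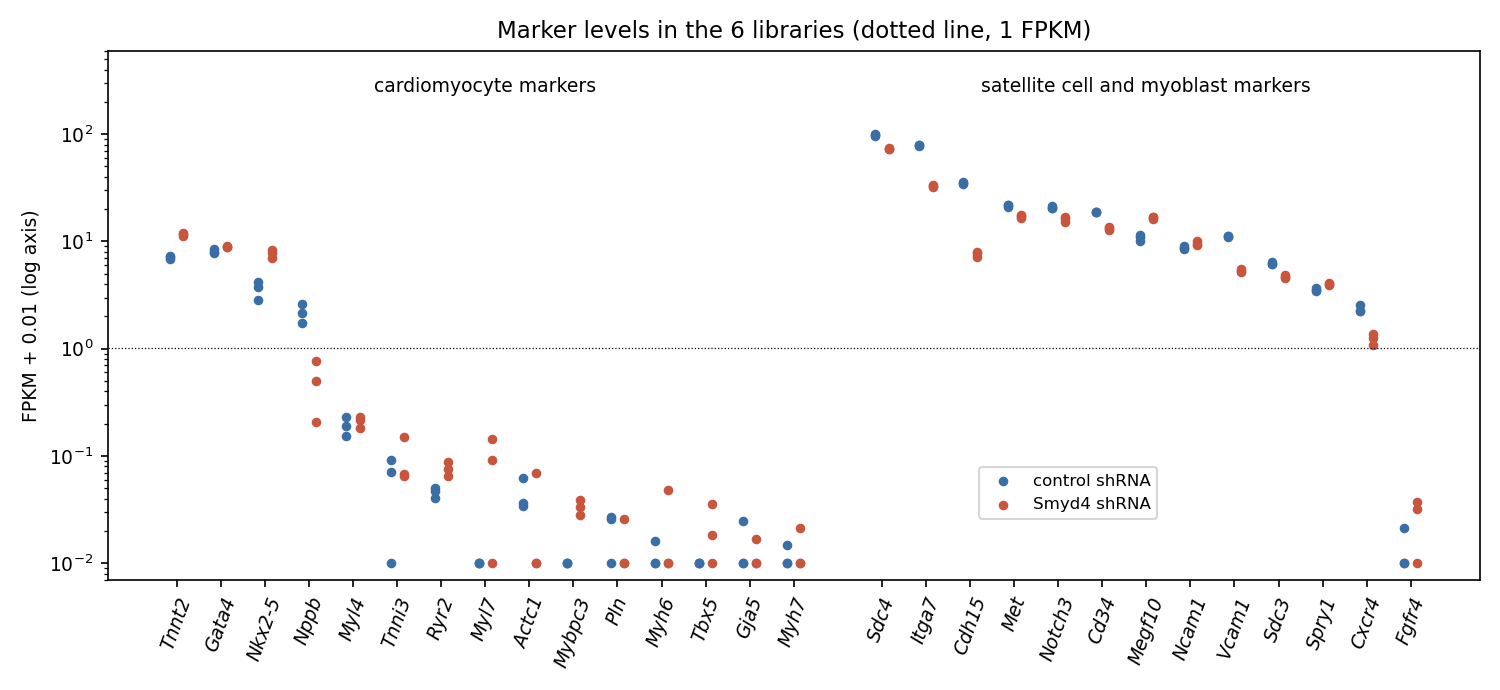
FPKM plus 0.01 on a log axis for the 15 cardiomyocyte and the 13 satellite cell and myoblast markers analysed, with 1 point per library and 3 libraries per group. Of the cardiomyocyte markers 11 have a mean under 1 FPKM (dotted line). Itga7 and Cdh15, from the satellite cell and myoblast list, lie above it in every library.

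Promoter sequences were read to see which members carry, next to their start, the motifs that the MyoD and MEF2 proteins bind. RefSeq (build GRCm38.p6) gave a promoter for 6 of the 9 genes, covering 250 bases before and 50 bases after the start. An E-box was searched as CANNTG on both strands, and its form CAGCTG separately. The MEF2 core was searched as TA, 4 letters that are each A or T, and TA, which reads the same way on both strands. Of 32851 mouse promoters of this length, 72.3% held CANNTG, 16.3% CAGCTG and 9.32% the MEF2 core. The following 5 are shown because they hold a MEF2 core (Myog, Mef2a and the first start of Mef2c) or belong to a member that fell in limma's test (Myf5 and Mef2d; no Myod1 promoter was matched), with both kinds of motif in capitals, 5′ to 3′ on the gene's strand.
Myog, chr1:134289754-134290053, plus strand: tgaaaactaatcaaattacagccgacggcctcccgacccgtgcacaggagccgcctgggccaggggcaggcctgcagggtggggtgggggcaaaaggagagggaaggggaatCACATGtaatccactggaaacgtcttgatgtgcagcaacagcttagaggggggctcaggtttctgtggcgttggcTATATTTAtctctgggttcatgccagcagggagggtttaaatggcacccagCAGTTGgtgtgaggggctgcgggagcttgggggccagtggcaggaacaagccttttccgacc
Myf5, chr10:107486085-107486384, minus strand: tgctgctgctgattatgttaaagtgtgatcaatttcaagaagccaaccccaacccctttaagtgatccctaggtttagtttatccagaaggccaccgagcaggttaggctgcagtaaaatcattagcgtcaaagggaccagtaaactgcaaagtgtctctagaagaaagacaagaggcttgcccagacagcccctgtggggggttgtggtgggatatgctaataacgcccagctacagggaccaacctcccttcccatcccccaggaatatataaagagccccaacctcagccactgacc
Mef2a, chr7:67372809-67373108, minus strand: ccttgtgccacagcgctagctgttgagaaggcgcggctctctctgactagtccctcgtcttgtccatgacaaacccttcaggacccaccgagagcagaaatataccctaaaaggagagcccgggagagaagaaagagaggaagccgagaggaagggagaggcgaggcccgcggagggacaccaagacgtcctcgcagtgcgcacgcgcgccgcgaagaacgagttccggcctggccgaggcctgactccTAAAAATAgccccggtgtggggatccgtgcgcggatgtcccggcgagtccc
Mef2c, chr13:83503784-83504083, plus strand: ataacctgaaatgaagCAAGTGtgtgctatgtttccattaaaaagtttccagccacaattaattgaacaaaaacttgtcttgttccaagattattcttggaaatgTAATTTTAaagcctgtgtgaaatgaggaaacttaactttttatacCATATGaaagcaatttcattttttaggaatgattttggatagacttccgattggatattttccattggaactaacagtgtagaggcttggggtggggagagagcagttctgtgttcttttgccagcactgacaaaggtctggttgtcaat
Mef2d, chr3:88142122-88142421, plus strand: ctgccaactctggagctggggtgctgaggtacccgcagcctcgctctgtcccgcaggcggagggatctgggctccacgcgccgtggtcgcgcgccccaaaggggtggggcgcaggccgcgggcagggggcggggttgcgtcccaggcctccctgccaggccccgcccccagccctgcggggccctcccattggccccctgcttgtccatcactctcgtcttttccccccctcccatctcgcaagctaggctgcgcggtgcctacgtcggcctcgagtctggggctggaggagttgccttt

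The Myog promoter held the E-boxes CACATG at positions -138 to -133 from the RefSeq start (no position 0), and CAGTTG at -12 to -7. Its MEF2 core TATATTTA lay between them, at -63 to -56. The first Mef2c promoter held CAAGTG and CATATG and the core TAATTTTA, while the third held the E-box CAGATG and no MEF2 core. In Mef2a the core TAAAAATA lay across the start, and the Mef2a window held no CANNTG. The Myf5, Pax7, Mef2d and second Mef2c windows held neither motif, and none of the 8 member windows held CAGCTG. Matches are descriptions of the letters in these windows, and binding was not measured.

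In the control libraries Mef2d had the highest level per length (22.0 FPKM on average), followed by Myod1 (18.8), Myf5 (8.68), Mef2a (7.43) and Mef2c (0.618 FPKM). Myog (0.246), Myf6 (0.132), Pax7 (0.0256) and Pax3 (0.00227 FPKM) were near the detection limit. Neighbours in this order had overlapping library ranges only at Myog and Myf6. In the labelled libraries Mef2d again stood first (19.7 FPKM), then Mef2a (7.17), Myod1 (5.31), Myf5 (4.83) and Mef2c (0.830 FPKM). There the ranges of Myod1 and Myf5 overlapped, as did those of neighbours among Myf6, Pax3, Myog and Pax7. The place of Myod1 thus moved below that of Mef2a.

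**Figure D2:**
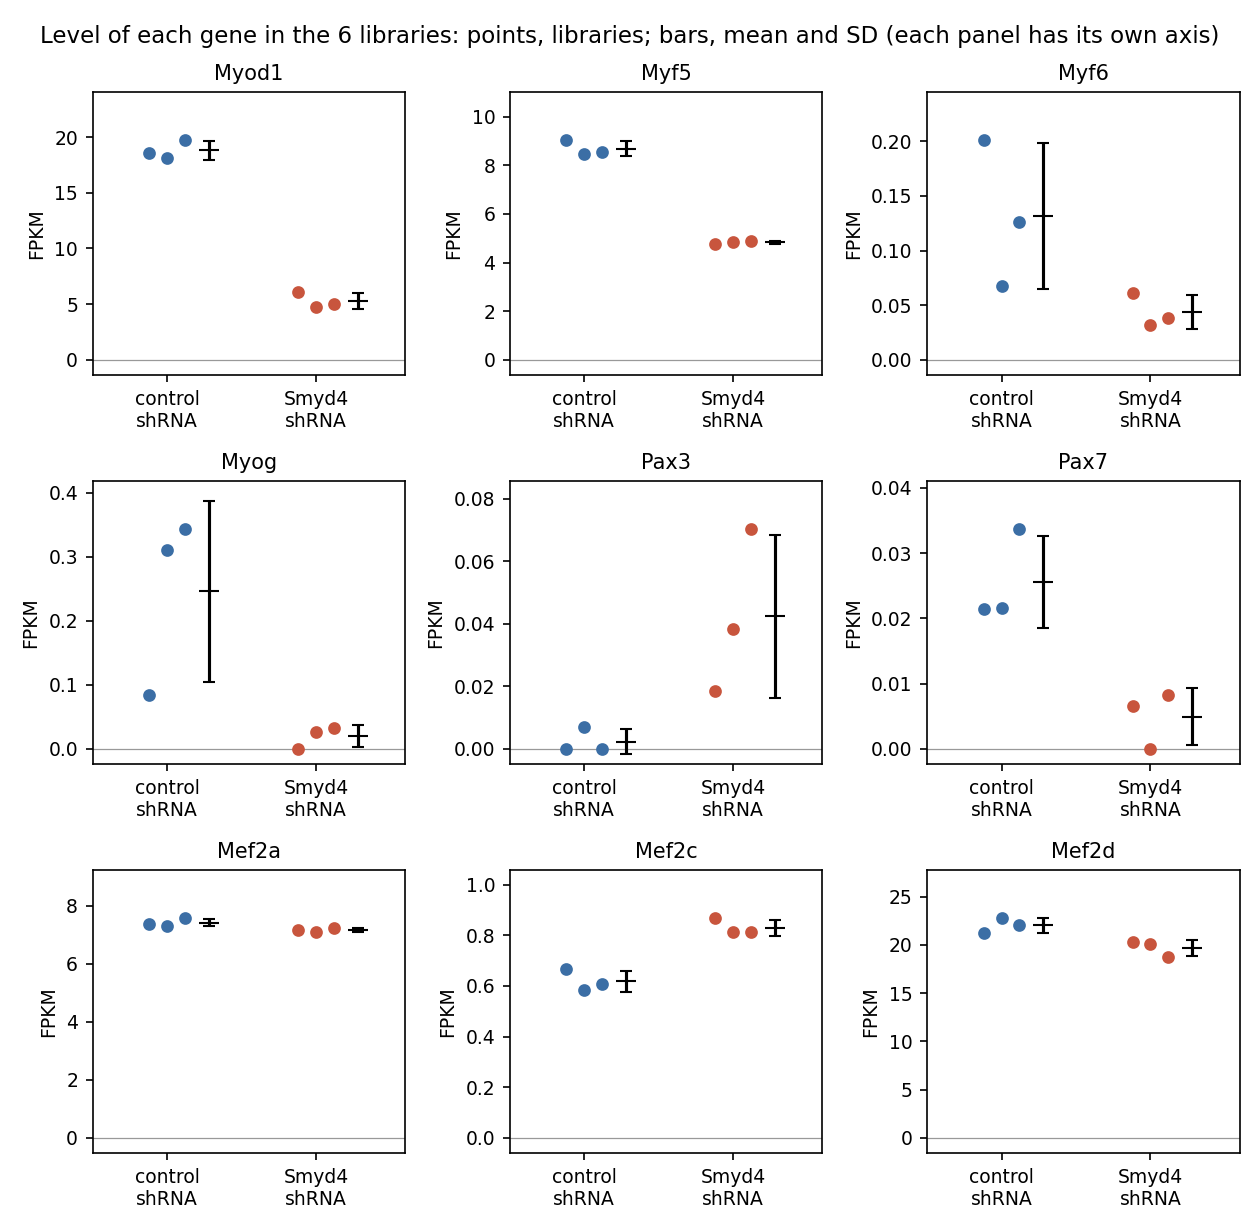
FPKM of each of the 9 genes in the 6 libraries, with vertical axes that include 0 and differ between panels; points are libraries, and bars give the mean and SD of 3 libraries. Myod1, Myf5 and Mef2d lie lower in the libraries labelled Smyd4 shRNA and Mef2c lies higher, while Myf6, Myog, Pax3 and Pax7 rest on 13 reads or fewer in any library.

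Myod1 and Myf5, the factors that commit cells to the myoblast fate, both fell, and Myod1 fell further. Myod1 (ENSMUSG00000009471, protein coding, GRCm38 chromosome 7, 46376474 to 46379092, plus strand) stood at 18.6, 18.1 and 19.7 FPKM in the controls and at 6.11, 4.78 and 5.03 FPKM in the labelled libraries. The groups did not overlap, and the lowest control value lay far above the highest labelled value. The mean went from 18.8 ± 0.831 to 5.31 ± 0.707 FPKM (SD, n = 3), 3.54-fold lower, with a limma log2 change of -1.74 (SE 0.08, 95% interval -1.93 to -1.55, adjusted p = 1.4e-06). Of the tested genes 0.857% had a larger absolute log2 change. In bulk RNA, fewer cells expressing a gene and less RNA per cell cannot be told apart.

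Myf5 (ENSMUSG00000000435, chromosome 10, 107482908 to 107486134, minus strand) stood at 9.03, 8.47 and 8.54 FPKM in the controls and at 4.76, 4.84 and 4.89 FPKM in the labelled libraries. Again no control value reached the labelled range. The mean was 1.80-fold lower, 8.68 ± 0.305 against 4.83 ± 0.0679 FPKM (SD, n = 3; limma log2 change -0.78, SE 0.04, 95% interval -0.87 to -0.69, adjusted p = 2.1e-06). In the authors' deposited table the log2 fold changes were -1.74 for Myod1 and -0.80 for Myf5.

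The ratio of Myod1 to Myf5 was 2.06, 2.14 and 2.31 in the controls and 1.28, 0.987 and 1.03 in the labelled libraries. It went from 2.17 ± 0.128 to 1.10 ± 0.161 (SD, n = 3), a log2 difference of -0.99. The groups did not overlap in this ratio, which does not depend on scaling between libraries. The exact two-sided permutation p was 0.1, the smallest that 3 libraries against 3 can give.

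Myog and Myf6, which act in differentiation, were close to absent in both groups. Myog (ENSMUSG00000026459, chromosome 1, 134289989 to 134292548, plus strand), whose promoter is shown above, had 3, 11 and 13 reads in the controls and 0, 1 and 1 reads in the labelled libraries. The first control library was thus close to the labelled ones. Pooled, 27 reads stood against 2, a scaled ratio of control to labelled of 13.3 (exact 95% interval 3.35 to 116, counting error only). Myog was under limma's level filter. It passed in DESeq2 on the recovered reads (adjusted p = 0.0151), where 32.6% of genes passed, and in limma without the filter (adjusted p = 0.0485), where 25.3% passed. The authors' deposited table gave Myog an adjusted p of 0.0134 with a log2 fold change of -0.51, where DESeq2 on the recovered reads gave -3.71.

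Myf6 (ENSMUSG00000035923, chromosome 10, 107492853 to 107494737, minus strand) lies 6718 bases from Myf5. It was listed at 0.201, 0.0676 and 0.126 FPKM in the controls and at 0.0613, 0.0317 and 0.0387 FPKM in the labelled libraries. These correspond to at least 6, 2 and 4 reads and at least 2, 1 and 1 reads, so the gap between the second control and the first labelled library comes from scaling. The ratio of control to labelled was 2.96. Taken at these smallest reads, its exact 95% counting interval of 0.898 to 12.6 includes equal levels, and DESeq2 gave an adjusted p of 0.39. If the true reads were more, the interval would be narrower.

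The progenitor factors Pax3 and Pax7 were lower still. Pax3 (ENSMUSG00000004872, chromosome 1, 78101267 to 78197134, minus strand) had 0, 1 and 0 reads in the controls and 3, 6 and 9 reads in the labelled libraries. The reads were pooled as 1 against 18, a ratio of labelled to control of 18.2 (exact 95% interval 2.88 to 759, counting error only). Pax3 passed in DESeq2 (adjusted p = 0.0216) but not in limma without the level filter (adjusted p = 0.125). Its highest level was 0.0703 FPKM. In the authors' deposited table Pax3 had a log2 fold change of 0.40 (adjusted p = 0.0341), where DESeq2 on the recovered reads gave 4.14.

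Pax7 (ENSMUSG00000028736, chromosome 4, 139737062 to 139833528, minus strand) had 3, 3 and 5 reads in the controls and 1, 0 and 1 reads in the labelled libraries. Pooled, 11 reads stood against 2, a ratio of control to labelled of 5.43 (exact 95% interval 1.19 to 50.5, counting error only). The DESeq2 adjusted p was 0.24 and the limma adjusted p without the filter was 0.223. Pax3 and Pax7 values thus lay on opposite sides, each at a level that gives little precision.

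The MEF2 genes moved little beside Myod1. Mef2d, the highest of them in FPKM, fell slightly, and Mef2a did not pass the test. Mef2c, the lowest in FPKM, was higher in the count-based fits. Mef2d (ENSMUSG00000001419, chromosome 3, 88142372 to 88172086, plus strand) stood at 21.3, 22.8 and 22.1 FPKM in the controls and at 20.3, 20.1 and 18.7 FPKM in the labelled libraries. The groups did not overlap, but the lowest control library lay close to the highest labelled one. The mean fell by 10.5% (22.0 ± 0.753 against 19.7 ± 0.832 FPKM, SD, n = 3; limma log2 change -0.16, SE 0.04, 95% interval -0.25 to -0.06, adjusted p = 0.0131). Of the tested genes 43.7% had a larger absolute log2 change. Mef2d overlaps 1700113A16Rik on the opposite strand, which had a mean of 0.260 FPKM in control and 0.489 FPKM in the labelled libraries; the sources used here do not say whether strand was counted.

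Mef2a (ENSMUSG00000030557, chromosome 7, 67231163 to 67372858, minus strand) stood at 7.39, 7.32 and 7.58 FPKM in the controls and at 7.17, 7.12 and 7.22 FPKM in the labelled libraries. All labelled values lay under the control values, by a small margin. The limma log2 change was -0.05 (SE 0.03, 95% interval -0.13 to 0.03, adjusted p = 0.282). Mef2a overlaps Lysmd4 on the opposite strand, at 1.52 FPKM in control and 1.64 FPKM in the labelled libraries, and 2 gene models on its own strand that did not exceed 0.338 FPKM.

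Mef2c (ENSMUSG00000005583, chromosome 13, 83504034 to 83667080, plus strand) stood at 0.665, 0.583 and 0.607 FPKM in the controls and at 0.867, 0.811 and 0.811 FPKM in the labelled libraries. No labelled library fell within the control range. Its counted length of 15715 bases turned these low levels into 217 to 356 reads per library. The mean was 34.2% higher (0.618 ± 0.0422 against 0.830 ± 0.0322 FPKM, SD, n = 3). Under the 1 FPKM filter it was not tested by limma; edgeR on the recovered reads gave a log2 change of 0.42 (adjusted p = 8.6e-05) and DESeq2 one of 0.43 (adjusted p = 0.0015). In limma without the filter the value was 0.25 and did not pass (adjusted p = 0.0639). In edgeR 23.3% of genes passed as higher and 26.3% as lower.

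Among the 3 MEF2 genes, the share of Mef2c in their summed FPKM was 2.27%, 1.90% and 2.01% in the controls and 3.06%, 2.89% and 3.03% in the labelled libraries. This was a rise of 0.936 percentage points, from 2.06 ± 0.190% to 2.995 ± 0.0891% (SD, n = 3). The share of Mef2d went from 73.2 ± 0.877% to 71.1 ± 0.955%, and that of Mef2a from 24.7 ± 0.719% to 25.9 ± 0.925%. For each share the groups did not overlap, with an exact two-sided permutation p of 0.1. The difference for Mef2a was 1.20 percentage points; without labelled replicate 3 it was 0.661 and without control replicate 2 it was 0.782. Mef2d thus made up most of the MEF2 mRNA per length in every library. These shares depend on the lengths used, 5985 bases for Mef2d, 14681 for Mef2a and 15715 for Mef2c. In pooled control reads, before division by length, Mef2d had 9618, Mef2a 7962 and Mef2c 709. Which transcripts of each gene were expressed was not tested.

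**Figure D3:**
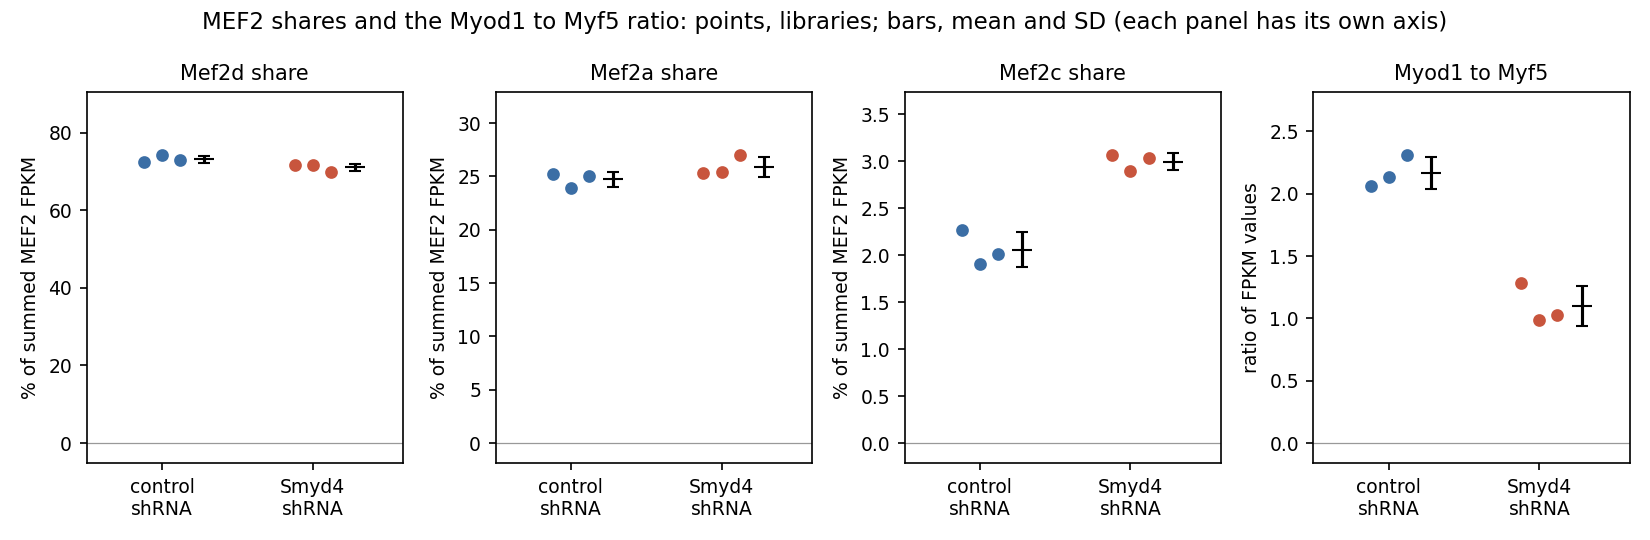
Share of Mef2d, Mef2a and Mef2c in their summed FPKM (percent) and the ratio of Myod1 to Myf5 FPKM, with 1 point per library and bars for the mean and SD of 3 libraries; axes include 0 and differ between panels. Mef2c goes from 2.06% to 2.995% of the sum and Mef2d from 73.2% to 71.1%, and the Myod1 to Myf5 ratio goes from 2.17 to 1.10.

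Across the 9 genes, 4 passed the level filter, and 3 of those (Myod1, Myf5 and Mef2d) were lower and 0 higher by limma, beside 23.3% lower and 25.1% higher over all genes tested. All 9 had groups that did not overlap, beside 38.7% of the whole table and 57.8% of the genes tested by limma. DESeq2 tested all 9 and passed Mef2c and Pax3 as higher and Myod1, Myf5, Myog and Mef2d as lower, beside 32.6% of all genes passed in either direction.

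The partners and inhibitors of the MyoD family changed unevenly. Of 15 genes tested, 3 rose and 8 fell, while 4 missed the threshold; the list's median log2 change was -0.15, and that of all tested genes 0.02. Over all tested genes 25.1% passed as higher and 23.3% as lower. The E proteins and Id genes are given together, having been picked out after their values were seen. Of the E proteins, Tcf4 fell from 3.15 to 2.51 FPKM (log2 change -0.28, adjusted p = 0.00639), while Tcf3 (46.1 and 44.3 FPKM in control and labelled libraries, adjusted p = 0.0995) and Tcf12 (8.85 and 8.84 FPKM, adjusted p = 0.976) did not pass. Msc, a bHLH repressor of myogenic factors, fell from 2.03 to 0.349 FPKM (log2 change -1.57, adjusted p = 3.0e-05). The size for this low gene depends on the scale: it was -2.56 in edgeR, and without control replicate 1 the gene was under the level filter. Bhlhe40, a bHLH repressor, fell from 17.1 to 12.0 FPKM, and Zeb1, an E-box binding repressor, from 6.87 to 4.83 FPKM. Of the Id genes, whose products inhibit E proteins, Id2 rose from 15.0 to 17.8 FPKM (adjusted p = 0.00436) and Id3 fell from 33.4 to 29.1 FPKM (adjusted p = 0.00568). Id1, the most abundant, stood at 60.7 and 58.8 FPKM (adjusted p = 0.352), and Id4 was under the level filter. Twist2 rose from 2.40 to 2.96 FPKM and Hes1 from 9.12 to 10.4 FPKM; in DESeq2 their adjusted p was 0.0706 and 0.0863.

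Factors upstream of the MyoD family in the embryo gave 2 higher, 3 lower and 3 not passed of 8 tested (median log2 change 0.09), beside 25.1% higher and 23.3% lower over all tested genes. Six4, a homeobox factor that activates myogenic genes, fell from 4.03 to 2.88 FPKM (log2 change -0.42, adjusted p = 7.3e-04). Eya4, of a family of transcriptional cofactors, fell from 2.03 to 0.113 FPKM (log2 change -2.04, adjusted p = 2.3e-06). Its log2 change was -3.33 with a pseudocount of 0.1 and -4.12 in edgeR, and without any one control library it was under the level filter. Six5 rose from 3.38 to 4.06 FPKM, with a DESeq2 adjusted p of 0.0686.

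Of 20 coactivators and chromatin partners tested, 3 rose, 9 fell and 8 did not pass (median -0.08). The shares over all tested genes were 25.1% higher and 23.3% lower. The acetyltransferase Kat2b fell from 9.52 to 6.80 FPKM, the demethylase Kdm1a from 18.4 to 14.9 FPKM and the cell cycle inhibitor Cdkn1a from 109 to 83.8 FPKM. The arginine methyltransferase Prmt5 rose from 25.99 to 32.7 FPKM (adjusted p = 1.5e-04). Carm1, another arginine methyltransferase, stood at 17.8 and 19.1 FPKM (adjusted p = 0.0394), and the deacetylase Sirt1 at 5.39 and 5.95 FPKM (adjusted p = 0.0322). The Carm1 call was lost without any one control library (adjusted p = 0.134, 0.0722 and 0.0534) and without the first or second labelled library (0.106 and 0.107), and also with median-of-ratios scaling (0.0598), TMM scaling (0.0728) and DESeq2 (0.114). The Sirt1 call was lost without any one control library (0.0887, 0.0596 and 0.0782) and without labelled replicate 2 or 3 (0.0717 and 0.098), and also without the level filter (0.0566), with TMM scaling (0.0556) and in DESeq2 (0.131).

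Of 23 regulators of MEF2 activity tested, 6 rose, 6 fell and 11 did not pass (median -0.01). These shares are near the 25.1% higher and 23.3% lower over all tested genes. Sik1, a kinase that phosphorylates class IIa histone deacetylases, fell from 5.85 to 3.15 FPKM (log2 change -0.80, adjusted p = 4.9e-05). The calcineurin inhibitor Rcan1 fell from 11.4 to 8.57 FPKM and the p38 kinase Mapk11 from 12.7 to 9.23 FPKM. Mapk14, the p38 alpha kinase, rose from 24.6 to 29.0 FPKM, its activator Map2k3 from 45.6 to 55.1 FPKM and the calcineurin subunit Ppp3ca from 33.3 to 40.6 FPKM. The class IIa deacetylases, which bind and repress MEF2 proteins and are named here after their values were seen, differed among themselves: Hdac4 (3.14 to 3.93 FPKM) and Hdac7 (12.1 to 13.9 FPKM) rose and Hdac5 (7.53 to 6.11 FPKM) fell. Hdac9, under the level filter, went from 0.806 to 0.0926 FPKM (edgeR, adjusted p = 1.2e-11).

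Of 19 MEF2 target genes analysed, 6 passed the filter; 0 rose, 5 fell and 1 did not pass (median -0.40). The 5 were Klf2 (15.1 to 7.55 FPKM, log2 change -0.95, adjusted p = 1.2e-06), Jun (50.04 to 37.2 FPKM), Klf6 (45.3 to 34.8 FPKM), Nr4a1 (6.06 to 4.33 FPKM) and Klf4 (48.2 to 45.7 FPKM, adjusted p = 0.0311), the last pair named after their values were seen. In DESeq2 Klf4 did not pass (adjusted p = 0.0921). All 5 are genes known to be induced rapidly by growth factors or stress in many cell types. The other 13 genes analysed had a mean under 1 FPKM. By edgeR 11 of the list were tested, 1 passed as higher and 8 as lower, beside 23.3% and 26.3% over all genes. In limma those shares over all tested genes were 25.1% and 23.3%.

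All 10 tested skeletal muscle differentiation genes fell (median log2 change -1.03), while 29 of the 39 analysed had a mean under 1 FPKM. Chrna1 and Chrnd, subunits of the muscle acetylcholine receptor, fell from 49.9 to 9.59 FPKM (log2 change -2.32, adjusted p = 2.3e-09) and from 11.6 to 1.21 FPKM (log2 change -2.82, adjusted p = 1.2e-08). Actn3, an actin crosslinker of fast fibres, fell from 9.81 to 2.54 FPKM (log2 change -1.77, adjusted p = 2.3e-07). By edgeR, 24 of these genes were tested, 0 passed as higher and 20 as lower. Over all genes tested by edgeR 23.3% passed as higher and 26.3% as lower, and by limma 25.1% and 23.3%.

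Of 12 satellite cell and myoblast markers tested, 3 rose, 9 fell and 0 did not pass (median -0.39). Among all tested genes 25.1% passed as higher and 23.3% as lower. Cdh15, the muscle cadherin, fell from 35.2 to 7.63 FPKM (log2 change -2.13, adjusted p = 1.5e-08), Itga7, a laminin receptor subunit, from 79.1 to 32.8 FPKM, and the adhesion molecule Vcam1 from 11.2 to 5.35 FPKM. Megf10, a receptor of satellite cells, rose from 10.9 to 16.6 FPKM. Ncam1 stood at 8.79 and 9.65 FPKM (adjusted p = 0.0446) and lost its call without control replicate 1 or 3 (0.109 and 0.127) and without the first or second labelled library (0.0729 and 0.135). It was also lost without the level filter (0.0848), with median-of-ratios scaling (0.0668) and with TMM scaling (0.0815). Spry1 stood at 3.53 and 3.99 FPKM (adjusted p = 0.027) and lost its call without the first or second control library (0.0696 and 0.0876) and without the first or second labelled library (0.0792 and 0.0671). It was also lost without the level filter (0.058), in edgeR (0.0798) and in DESeq2 (0.278).

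**Figure D4:**
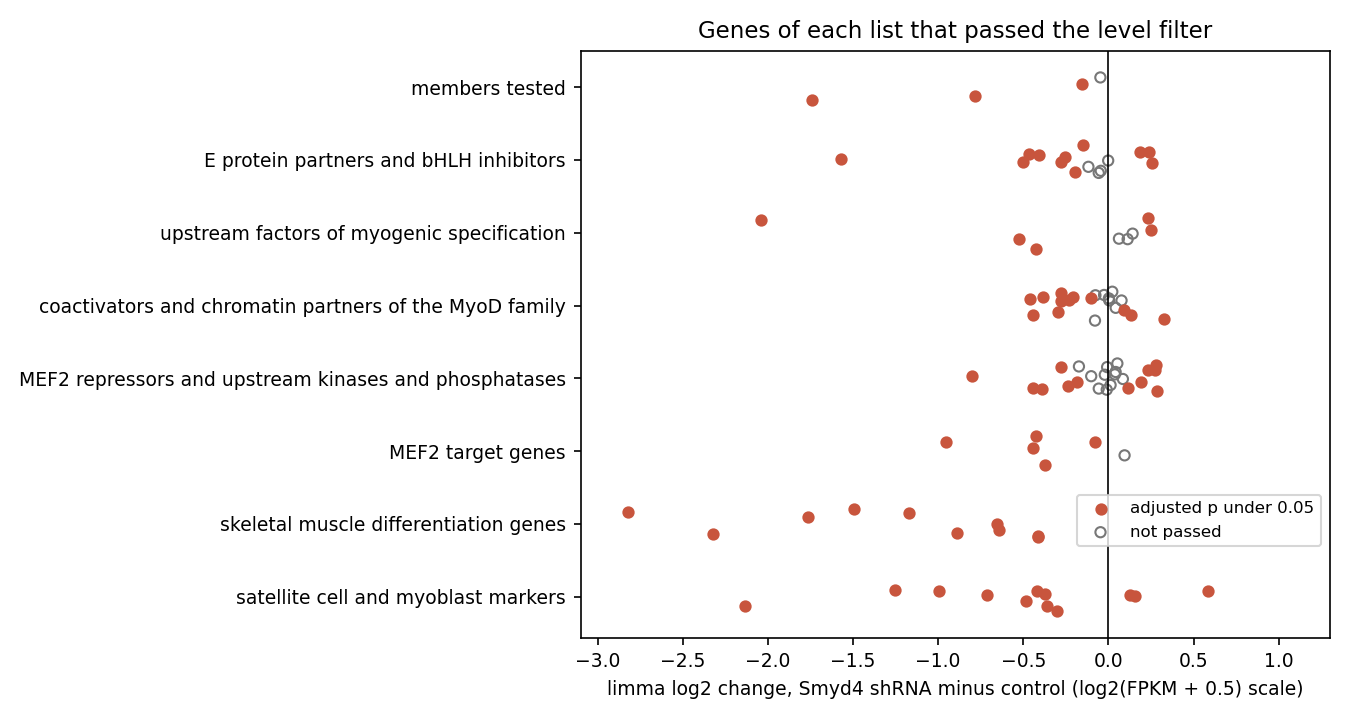
limma log2 change (labelled Smyd4 shRNA minus control, on the log2(FPKM + 0.5) scale) of the tested members and of the tested genes in 7 pathway lists, with 1 point per gene and filled points for an adjusted p under 0.05; vertical scatter within a row only separates points. All 10 tested skeletal muscle differentiation genes lie left of 0, while the regulators of MEF2 activity lie on both sides.

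Summed markers of several other cell types also differed between the groups. The 4 neuron and neural crest markers analysed summed to between 134.8 and 142.6 FPKM in the controls and between 28.0 and 29.7 FPKM in the labelled libraries, with 3 of 3 tested lower. The 5 smooth muscle markers summed to between 320.1 and 333.7 FPKM and between 214.4 and 223.6 FPKM, with 2 of 3 tested lower. The 5 macrophage markers summed to between 28.9 and 30.4 FPKM and between 19.5 and 21.3 FPKM, with 1 of 2 tested lower. The 8 fibroblast markers summed to between 238.8 and 245.6 FPKM and between 270.2 and 281.7 FPKM. Gene by gene they were split: of 5 tested, 2 were higher, 2 lower and 1 did not pass (median log2 change 0.02). Over all tested genes 25.1% passed as higher and 23.3% as lower. The 5 endothelial markers stayed at or under 0.655 FPKM. The part of these other cell types in the values of the 9 genes was not tested.

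Genes with the most similar pattern over the 6 libraries were listed by Pearson's r of log2(FPKM + 0.5), as a description. Flot1 (r = 0.9994), Sema4f (0.9993) and Nacc1 (0.9993) were nearest to Myod1, and Spsb1, Dennd5a and Slc39a14 (each 0.9994) to Myf5. Such values were common: 1355 genes had an r above 0.95 with Myod1 and 1417 with Myf5, and the libraries fall into 2 groups that share this difference. Trim25 (0.9888), Ube2l6 (0.9860) and Uap1 (0.9858) were nearest to Mef2a, where 75 genes exceeded 0.95. Arvcf (0.9915), Myl6b (0.9881) and Rabl6 (0.9879) were nearest to Mef2d, where 85 did.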

How the data were processed

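RNA from HL-1 cells was sequenced in 3 control shRNA and 3 Smyd4 shRNA libraries. TopHat2 2.0.9, Bowtie2 2.0.6 and GRCm38 are named in the submitters' processing notes. The authors deposited FPKM per gene and, for 5616 genes, normalized read signal, log2 fold changes and p-values; the largest adjusted p there is 0.04988, so that table holds only genes that passed. Of its signal values 100% were whole multiples of the worth of 1 read in their library (tolerance 0.0001). For other genes reads were recovered from FPKM and a length: the GENCODE M21 length where it gave whole reads (13309 genes), and otherwise the smallest length that did (3321 genes, Myf6 included), where whole reads follow from the choice and are lower bounds. Replicate libraries differed by more than counting noise (chi-square per degree of freedom 1.71 to 3), so none was counted as a duplicate. FPKM were tested with limma 3.58.1 (R 4.3.3) on log2(FPKM + 0.5), mean of at least 1 FPKM, Benjamini-Hochberg over all genes tested, threshold 0.05; fold changes on this scale understate changes of low genes. Recovered reads were tested with edgeR 4.0.16 and DESeq2 1.42.0 as alternatives. Exact intervals cover counting error only. Other alternatives were pseudocounts of 0.1 and 1, filters of none and 5 FPKM, median-of-ratios and TMM scaling, a replicate block, and leaving out each library. Named genes are the members, Smyd4, up to 3 genes per direction of each list by adjusted p, the 3 nearest genes of each tested member, and cell type markers; further genes are said to be chosen after their values were seen. The members and lists were chosen with earlier results of these data known. Some genes that this rule names are not reported here.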

Additional observations from a re-analysis of the deposited data

How the results depend on the processing

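Myod1 (log2 change -1.84 to -1.66), Myf5 (-0.85 to -0.73) and Mef2d (-0.18 to -0.12, adjusted p up to 0.0497, without the second control library) stayed lower and past the threshold in all 15 alternatives, and Mef2a (-0.06 to -0.03) was past it in none of the 15. The number of members passed as higher was 0 by limma, 1 by edgeR (5 members tested) and 2 by DESeq2 (9 tested). Mef2c gave 0.25 in limma without the filter (adjusted p = 0.0639); leaving out each library in turn in edgeR, chosen after seeing the data, gave 0.38 to 0.47. Over all genes, leaving out each library gave 2297 to 2568 higher and 2239 to 2453 lower, against 2839 and 2635. Same-numbered libraries had correlations of -0.0324, 0.0182 and 0.00689 in their deviations from the group means, so the numbers were not taken as pairs; not every library correlated best with its own number. The fit with the replicate block gave 2667 higher and 2474 lower genes, with 3 members lower and 0 higher; under it Carm1 (adjusted p = 0.0788), Sirt1 (0.0589) and Spry1 (0.0613) lost their calls. Of 35 list genes named by rule, 28 kept their call in every alternative run for them. Depth limits Myf6, Myog, Pax3 and Pax7, which had 13 reads or fewer per library.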
